A study of Drosophila melanogaster with 2 samples.

Results

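The 9 genes described here encode the insulin receptor, the kinases and adaptors below it, their transcriptional and translational effectors, and the kinase Lk6. They were InR, chico, Pi3K92E, Pdk1, foxo, Thor, Tor, S6k and Lk6, taken by name from the 13945 protein-coding genes of the Ensembl models for Drosophila melanogaster, in which Tor is listed as mTor. At each gene, every called region was collected whose summit, the base of highest signal, lay inside the gene or within 1 kb of it. The regions come from chromatin immunoprecipitation sequencing (ChIP-seq) for Eyeless, a Pax6 protein that binds DNA through paired and homeobox domains and is best known for its part in eye development.

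The study has 1 group, with no second genotype, stage or treatment. Its animals were whole wandering larvae of the third instar, males and females together, of a transgenic line that stably expresses Eyeless with green fluorescent protein at its C terminus (ey-eGFP). Precipitation used an antibody against GFP according to the description, although the antibody entry of the labels names ey. The 2 libraries are biological replicates 1 and 3, and nothing in the labels gives the tissues in which the fusion protein was made. In whole larvae, strong occupancy in few cells and weak occupancy in many cells cannot be told apart. Replicate 1 has 30000 regions, replicate 3 has 27637, a list called on both libraries pooled has 30000, and the optimal list holds the 6835 pooled regions with the highest signal, all of which passed the authors' threshold on the irreproducible discovery rate between replicates. The pooled list is labelled as peaks and background for input to that threshold. Its weaker regions, below the optimal list, may therefore include background. Signal is the authors' strength value for a region, and its scale and the sequencing depth are unknown, so signals are compared only within a list and ranks (1 is the strongest) are used between lists. With 1 group and region lists only, no test between conditions exists, and every count below is a description.

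In this pathway insulin-like peptides activate the receptor InR, Chico couples the receptor to phosphoinositide 3-kinase, and the lipid made there brings Pdk1 and Akt together at the membrane. Akt keeps the transcription factor Foxo out of the nucleus and releases the kinase Tor from its inhibitors, and Tor in turn activates S6k and inactivates Thor, a protein that holds back the cap-binding factor eIF4E. Lk6 phosphorylates eIF4E and so acts on the same step of translation. In larvae the pathway ties growth to feeding.

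Of the 9 genes, 8 had at least 1 summit of the optimal list, and chico had none. The share over all protein-coding genes was 34.1%. These are long genes, with a median length of 13383 bp against 2166 bp over all protein-coding genes, and long genes hold more summits. Among genes within 1.5 times the length of each member, the share with an optimal summit was on average 49.96%, from 24.5% for genes of the length of Thor to 61.6% for those of the length of InR. When only summits within 1 kb of a transcription start site (TSS) of the gene were counted, 7 of the 9 had one, against 26.8% of all protein-coding genes. That share was not matched for length or for the number of TSSs, which was 6 at Pdk1 and 4 at InR. Optimal summits lay in the 9 gene windows at 0.990 per 10 kb, and in all gene windows at a mean of 0.668 per 10 kb.

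The 8 genes held 16 optimal regions. InR had 6, foxo, S6k and Lk6 had 2 each, and Pi3K92E, Pdk1, Thor and Tor had 1 each. The median signal of the 16 was 144, and that of all optimal regions was 149. Only 1 of the 16, at Lk6, was among the strongest 1367 optimal regions, a number equal to 20% of the list. The other 15 ranked between 1660 and 5885. The median best rank was 2267.5 over the 8 genes and 2604 over all genes with an optimal summit. Against the median best rank of genes of like length with an optimal summit, Lk6 (6 against 2220), Pi3K92E (1660 against 2620) and Tor (1703 against 2480) ranked higher. InR (1732 against 1610), foxo (2803 against 1839), Pdk1 (3258 against 2107), Thor (4178 against 3064.5) and S6k (4347 against 2209) ranked lower.

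**Figure D1:**
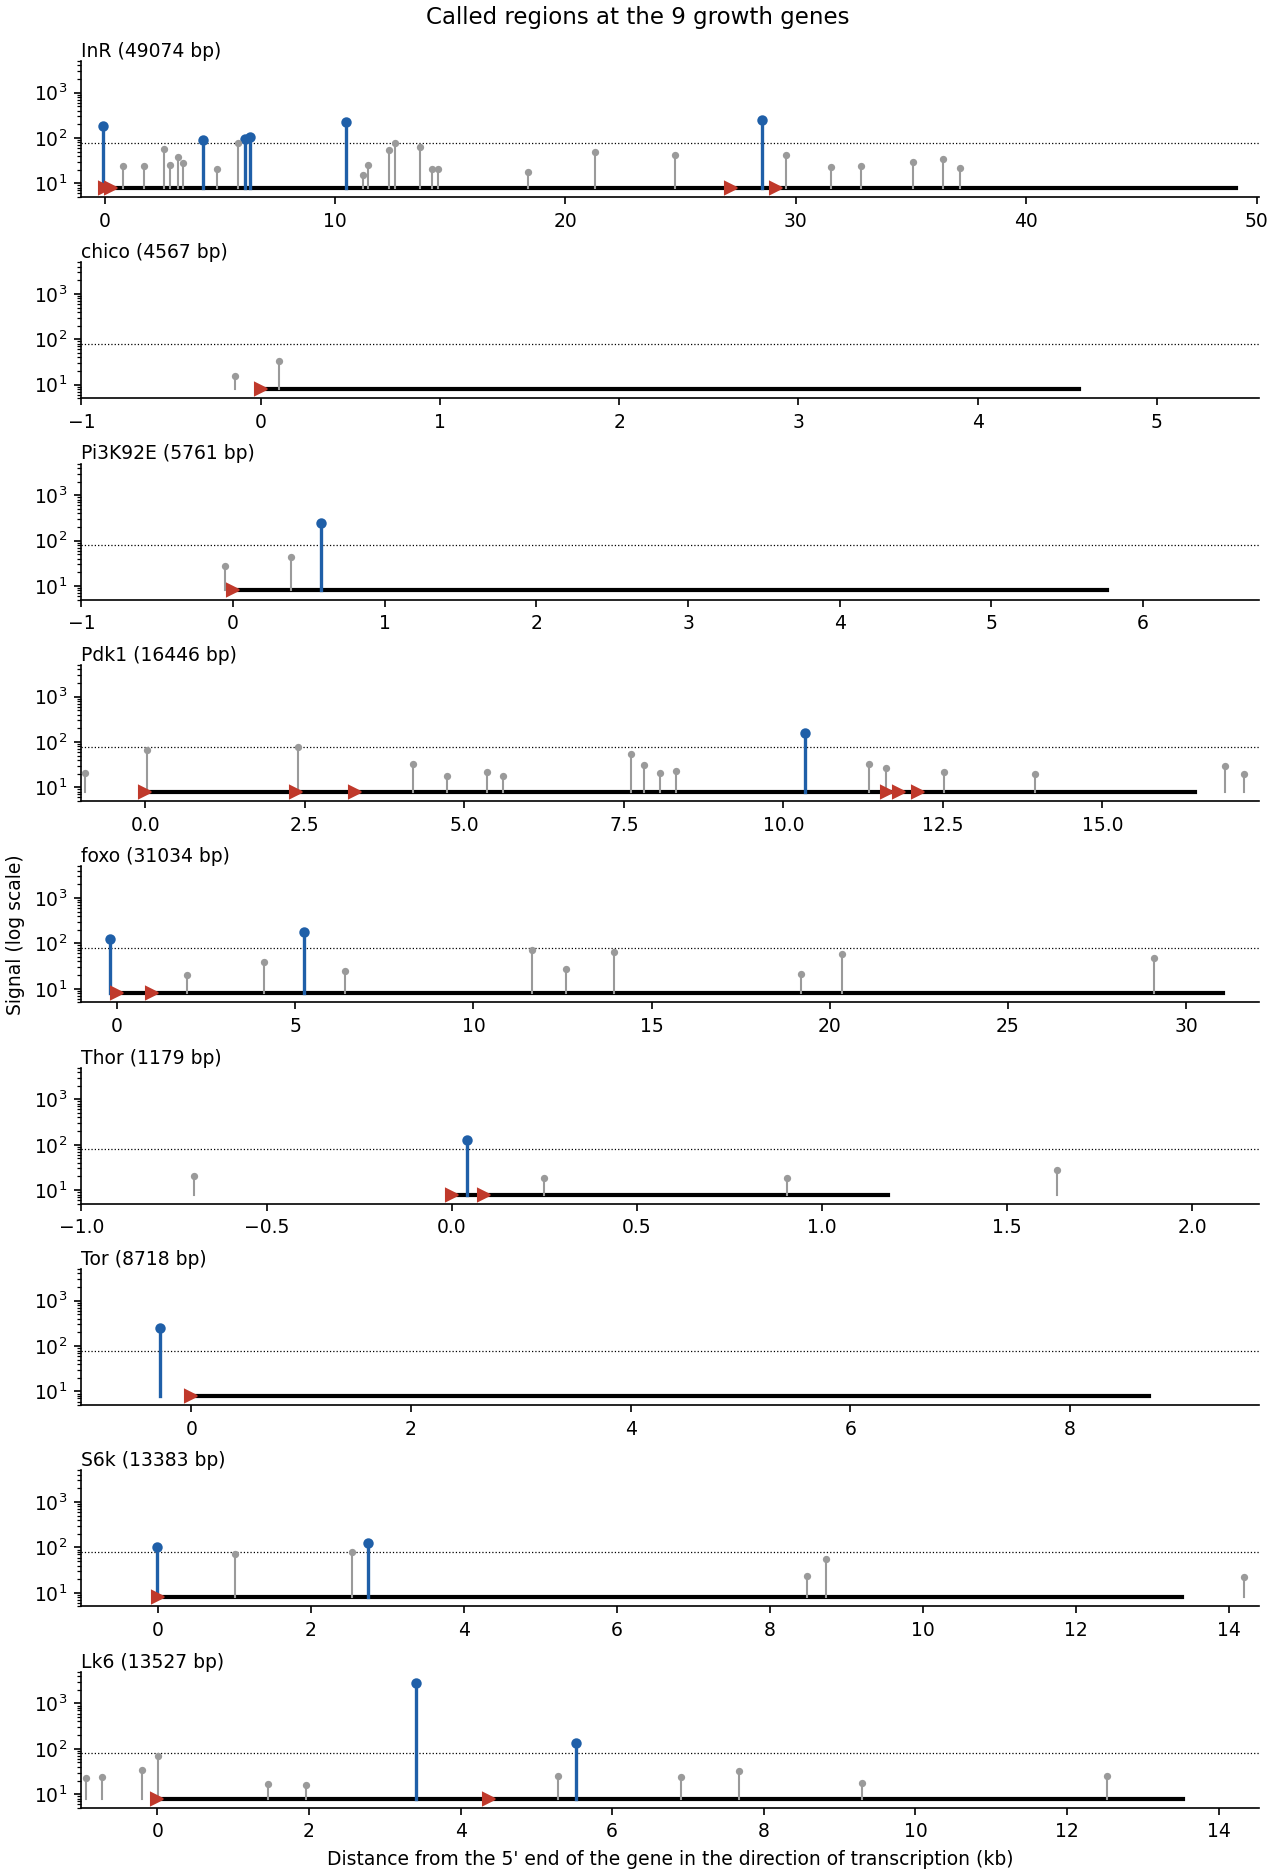
Signal of each pooled region (log scale) against the distance of its summit from the 5′ end of the gene, in kb along the direction of transcription, for the 9 genes. Blue marks optimal regions, grey marks weaker pooled regions, the dotted line is the lowest optimal signal (79.3), the black bar is the gene and red arrowheads are its TSSs. The intronic region of Lk6 at 2780 stands above all others, and chico has only 2 regions, both below the line.

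Lk6 (FBgn0017581, chromosome 3R, 11750931 to 11764457, minus strand) had the strongest region of the group. This region (11760771 to 11761338) had a signal of 2780 and ranked 6 of 6835 in the optimal list, 3 in replicate 1 with a signal of 1537, and 8 in replicate 3 with a signal of 1293. Both libraries thus placed it among their 8 strongest regions. By its best region Lk6 stood 8th among the 4749 genes with an optimal summit. The summit lay in an intron, 968 bp upstream of the internal TSS of the gene and 3410 bp downstream of the distal one, and no other gene had its window over it. The replicate summits lay 12 bp and 0 bp from the pooled summit. At 568 bp it was the only one of the 16 regions wider than the commonest width of 430 bp, as were 4.39% of all optimal regions. The 201 bp centred on the summit are shown because they carry the strongest signal at any of the 9 genes. Here and below, bases are from the Release 6 genome (dm6) on the strand of the gene, with annotated UTR bases left out and motif matches in capitals.
Lk6 intron, chr3R:11760947-11761147, minus strand: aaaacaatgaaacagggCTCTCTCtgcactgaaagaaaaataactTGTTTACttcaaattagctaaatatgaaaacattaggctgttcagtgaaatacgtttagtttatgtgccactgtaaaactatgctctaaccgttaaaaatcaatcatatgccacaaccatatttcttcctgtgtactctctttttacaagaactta
The first run of capitals is a match to GAGAGAG, the repeat recognised by GAGA factor. The other is a match to GTAAACA, the core recognised by FOXO proteins. Both matches are on the opposite strand and so appear here as their reverse complements. The FOXO core match lay 49 bp from the summit and the GAGA match 77 bp from it. Neither lay wholly within 50 bp of the summit. Of all optimal windows of 201 bp, 5.50% held the FOXO core and 3.23% held GAGAGAG. The summit window of 101 bp was AT-rich, with 30.7% GC against 43.6% in windows 300 bp to either side.

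The second optimal region of Lk6 (11758724 to 11759153) had a signal of 133 and ranked 3931, with ranks of 3939 and 4579 in replicates 1 and 3. It lay in an intron, 1140 bp downstream of the internal TSS and 2108 bp from the first summit. The distal promoter of Lk6 had a weaker pooled region, 6 bp from the TSS, with a signal of 69.6 and a rank of 7771. That promoter region ranked 5336 in replicate 1 and 10701 in replicate 3, so it was within the 6835 strongest regions of replicate 1 only. The 13 pooled regions at Lk6 compare with a median of 4 at genes of like length, of which 5.05% had as many. Pooled regions can overlap one another or lie in the window of another gene. Such counts, here and below, are therefore not counts of separate sites.

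InR (FBgn0283499, chromosome 3R, 21570248 to 21619321, minus strand), the receptor, had the largest number of optimal regions of the 9, at 6. It is also the longest of them, at 49074 bp. Of 445 genes of like length, 67 (15.1%) had 6 or more, as did 1.20% of all protein-coding genes. Its strongest region (21590687 to 21590951) had a signal of 245 and a rank of 1732, and ranked 1888 in replicate 1 and 1562 in replicate 3. The summit lay in an intron, 622 bp upstream of the most internal TSS and 28508 bp from the most distal one. Its 201 bp are shown for a feature noticed on reading them, a perfect inverted repeat with arms of 9 bp around a spacer of 6 bp, which ended 3 bp from the summit.
InR intron, chr3R:21590713-21590913, minus strand: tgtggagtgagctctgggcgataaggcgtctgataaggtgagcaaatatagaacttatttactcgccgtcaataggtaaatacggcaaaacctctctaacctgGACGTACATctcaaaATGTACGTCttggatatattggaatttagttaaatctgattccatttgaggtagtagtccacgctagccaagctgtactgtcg
The capitals mark both arms of the repeat, which was chosen after its sequence was seen. With spacers of up to 10 bp, 104 of all optimal summit windows of 101 bp (1.52%) held arms of this length or longer, and the median longest arm was 5 bp. No other summit window of the 9 genes had arms longer than 7 bp.

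The next InR region (21608840 to 21609051) lay in an intron 10172 bp from the nearest TSS, with a signal of 226, a rank of 1933 and replicate ranks of 1570 and 2447. The summit of replicate 1 lay 31 bp and that of replicate 3 lay 95 bp from the pooled one. At the distal promoter, a region (21619281 to 21619574) had its summit 68 bp upstream of the TSS, with a signal of 180 and ranks of 2690, 2659 and 2675 in the pooled list, replicate 1 and replicate 3. These 3 ranks differed by less than those of any other region of InR. Its summit also fell within 1 kb of the 3′ end of E2f1, a cell cycle transcription factor gene whose TSS is 13304 bp away. E2f1, kri and lncRNA:CR44034 are named here after the positions of the regions were seen.

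The remaining 3 InR regions lay between 3979 and 6019 bp into the gene from its second TSS, with signals from 91.5 to 104. Regions 4 (21612802 to 21613231) and 5 (21613003 to 21613432) overlapped, with summits 201 bp apart. Replicate 1 had a separate region for each, ranked 4998 and 5831, with summits 0 bp and 2 bp from the pooled ones. Replicate 3 had 1 region over both, ranked 5677, with its summit 101 bp from that of region 4 and 100 bp from that of region 5. Region 6 (21614842 to 21615271, rank 5885) had its summit in an exon of the non-coding gene lncRNA:CR44034, which lies within InR. It ranked 3849 in replicate 3 and 11462 in replicate 1, the widest gap between replicates among the 16. InR had 30 pooled regions in all, against a median of 9 at genes of like length, and 6.97% of those had as many.

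The components that act just below the receptor were unequal. At chico (FBgn0024248, chromosome 2L, 10242512 to 10247078, minus strand), the receptor substrate, the pooled list had 2 regions near the TSS with signals of 33.1 (rank 15488) and 15.9 (rank 29261). Replicate 1 had 1 region there, with a signal of 19.6 and a rank of 15621, and replicate 3 had none. Among genes of the length of chico, 41.6% had an optimal summit. At Pi3K92E (FBgn0015279, chromosome 3R, 20628972 to 20634732, minus strand), the catalytic subunit of the lipid kinase, 1 region (20634123 to 20634269) had a signal of 251 and a rank of 1660, with ranks of 2095 and 1414 in replicates 1 and 3. Its summit lay in the 5′ UTR, 582 bp downstream of the TSS. It had the highest signal of the 15 regions outside the strong region of Lk6.

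Pdk1 (FBgn0020386, chromosome 3L, 129450 to 145895, plus strand), the kinase that phosphorylates Akt and S6k, had 1 optimal region (139710 to 139916) with a signal of 156 and a rank of 3258. It ranked 4617 in replicate 1 and 2557 in replicate 3. The summit lay in an intron, 1273 bp upstream of the nearest of the 6 TSSs. Pdk1 had 17 weaker regions beside it, and its 18 pooled regions compare with a median of 5 at genes of like length, of which 2.02% had as many. Of the 17, 10 overlapped a region of both replicates by at least 1 bp. Some of the 17 overlapped one another. Those with summits 57 bp and 236 bp from the TSS of another gene lay in the window of that gene. The strongest of the weaker ones, with a signal of 77.9 and a rank of 6961, lay 31 bp from an internal TSS and was found in replicate 1 and not in replicate 3. A region 22 bp from the most distal TSS had a signal of 65.7 and was found in both.

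foxo (FBgn0038197, chromosome 3R, 14056945 to 14087978, plus strand), the forkhead transcription factor restrained by Akt, had its stronger region (14062132 to 14062273) in an intron, 4261 bp from the nearest TSS. The signal was 174 and the rank 2803, with ranks of 2666 and 2990 in replicates 1 and 3. The window is shown because it was the most AT-rich of the 16, at 25.7% GC against 48.5% in its flanks, and because a TAATTA match, the core bound by many homeodomains, lay 13 bp from the summit.
foxo intron, chr3R:14062080-14062280, plus strand: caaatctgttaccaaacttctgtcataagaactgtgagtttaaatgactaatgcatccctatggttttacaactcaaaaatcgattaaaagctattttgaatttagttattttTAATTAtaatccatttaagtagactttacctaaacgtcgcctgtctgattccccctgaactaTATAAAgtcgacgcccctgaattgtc
The capitals mark TAATTA and, 75 bp from the summit, TATAAA. The promoter region of foxo (14056518 to 14056947) had a signal of 127 and a rank of 4165, with its summit 212 bp upstream of the TSS. It ranked 2939 in replicate 3 and 6327 in replicate 1, within the strongest 6835 of both.

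At Tor (FBgn0021796, chromosome 2L, 13004480 to 13013197, plus strand), the kinase at the centre of nutrient sensing, there was 1 region (13004091 to 13004323) and no weaker one. Its signal was 247 and its rank 1703, with ranks of 2672 in replicate 1 and 1176 in replicate 3. The summit lay 289 bp upstream of the Tor TSS and 84 bp upstream of the TSS of Vha68-1, a subunit gene of the vacuolar proton pump on the other strand. The 2 start sites are 373 bp apart, so the region lies in a shared divergent promoter and cannot be given to either gene. It was the only one of the 16 regions nearer to a TSS of another gene than to its own.
Tor and Vha68-1 promoter, chr2L:13004108-13004291, plus strand of Tor: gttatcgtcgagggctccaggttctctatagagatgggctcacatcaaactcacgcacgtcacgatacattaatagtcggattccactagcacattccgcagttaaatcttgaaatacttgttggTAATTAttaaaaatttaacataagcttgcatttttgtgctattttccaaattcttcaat
The capitals mark a TAATTA match that lay 42 bp from the summit and 247 bp upstream of the Tor TSS.

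S6k (FBgn0283472, chromosome 3L, 5797549 to 5810931, minus strand), the kinase of ribosomal protein S6, had 2 regions of low rank. The intronic one (5807970 to 5808399), 2746 bp downstream of the TSS, had a signal of 122 and ranked 4347, with ranks of 4062 and 3918 in replicates 1 and 3. In replicate 1 the summit lay 178 bp from the pooled one. The promoter region (5810723 to 5811152) had a signal of 102 and a rank of 5236, with its summit 7 bp upstream of the TSS and 35 bp from that of kri, a divergent gene whose TSS is 42 bp from that of S6k. It ranked 4302 in replicate 1 and 6837 in replicate 3, just outside the 6835 strongest of that library. Another S6k region was just below the optimal list, with a signal of 78.9 and a rank of 6862 against a lowest optimal signal of 79.3.

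Thor (FBgn0261560, chromosome 2L, 3478434 to 3479612, plus strand), the eIF4E-binding protein and a known transcriptional target of Foxo, had 1 region at its promoter (3478261 to 3478690). The signal was 127 and the rank 4178, with ranks of 4360 in replicate 1 and 4594 in replicate 3. Thor has 2 TSSs, and the summit lay 42 bp downstream of the first and 46 bp upstream of the second. The replicate summits were 6 bp and 2 bp from the pooled summit. The 58 bp upstream of the first TSS are shown because they hold its core promoter.
Thor promoter, chr2L:3478376-3478433, plus strand: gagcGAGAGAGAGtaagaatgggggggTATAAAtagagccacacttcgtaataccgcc
The capitals mark overlapping GAGAGAG matches that began 54 bp and 52 bp upstream of the first TSS. They also mark a TATAAA match that began 31 bp upstream of it. A match to the FOXO core GTAAACA lay in the 5′ UTR, 53 bp from the summit. Thor is the shortest of the 9 genes, at 1179 bp, and its 5 pooled regions compare with a median of 1 at genes of like length, of which 0.662% had as many. The 4 weaker ones had signals from 18.7 to 27.3, and all 4 overlapped a region in each replicate by at least 1 bp. Such an overlap does not make each a separate region of the replicate. In replicate 1 the weaker region at 3478468 to 3478897 overlapped the promoter region (3478255 to 3478684). The one at 3479124 to 3479553 overlapped a region with its summit outside it, at 3479668.

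By position, 5 of the 16 summits were no more than 500 bp from the TSS of a protein-coding gene, 9 lay in introns, 1 lay in the 5′ UTR farther from the TSS (Pi3K92E) and 1 in another exon (InR region 6). Over all optimal regions, 39.1% were at a TSS, 40.3% were in introns, and 17.0% were intergenic, a class that the choice of regions within 1 kb of a gene left almost no room for. Of the 16 summits, 7 lay upstream of the nearest TSS of their gene. The windows of other protein-coding genes covered 3 of the summits, at InR, Tor and S6k. At 7 regions the width was below the commonest 430 bp, as at 43.6% of all optimal regions.

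Both replicates carried most of these regions among their 6835 strongest. Of the 16 regions, 14 (87.5%, 95% exact binomial interval 61.7% to 98.4%, counting error over regions only) overlapped such a region in each replicate by at least 1 bp, against 80.1% of all optimal regions. The exceptions were InR region 6, missing from the strongest of replicate 1, and the S6k promoter, missing from those of replicate 3. InR regions 4 and 5 were both among the 14, although the same region of replicate 3 was matched to both. The interval treats them as separate. All 8 genes with an optimal summit had at least 1 summit among the strongest regions of each library. The matching share over all genes with an optimal summit was not computed, so whether this is usual is not known. The median distance from the pooled summit was 10.5 bp in replicate 1 and 24 bp in replicate 3, taking the strongest overlapping region of the replicate where there were several. That region also had the nearest summit in all but 1 case, InR region 5 in replicate 1. Since the pooled list was called on both libraries together, these overlaps describe the libraries and are not an independent check.

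**Figure D2:**
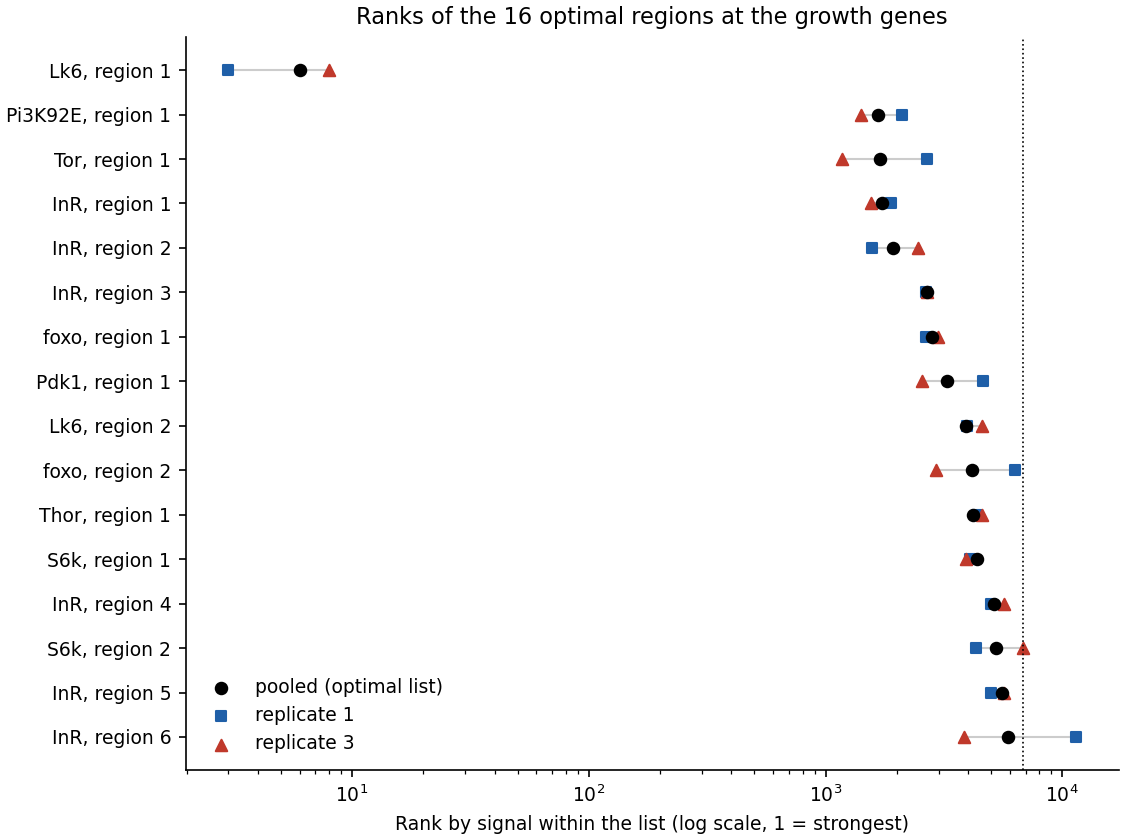
Rank by signal (log scale, 1 is the strongest) of the 16 optimal regions at the 9 genes in the pooled list (black circles), replicate 1 (blue squares) and replicate 3 (red triangles), each by its strongest overlapping region. The dotted line is rank 6835, the length of the optimal list. The Lk6 intron ranks 6, 3 and 8, and the only points right of the line are InR region 6 in replicate 1 and the S6k promoter in replicate 3.

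Below the optimal list, 74 weaker pooled regions lay at the 9 genes, with 24 at InR, 17 at Pdk1, 11 at Lk6, 9 at foxo, 5 at S6k, 4 at Thor, 2 each at Pi3K92E and chico, and none at Tor. Of these, 44 (59.5%) overlapped a region of both replicates by at least 1 bp, as did 53.1% of all 23165 such pooled regions. The pooled list holds background as well as peaks, so a weaker region is not by itself a bound site. The 3 just below the limit were at S6k (78.9), InR (78.2, rank 6934) and Pdk1 (77.9). At the other side of the limit, the lowest optimal regions of the genes were InR region 6 at 91.5 and InR region 5 at 97.1. Each library also had strong regions at some of these genes that the optimal list did not hold. They were at InR, Pdk1 and Lk6 in replicate 1 and at InR and foxo in replicate 3. The strongest 6835 of replicate 1 held 8 summits at InR and those of replicate 3 held 6, and 2 and 1 at Pdk1, 2 and 3 at foxo, 3 and 2 at Lk6, and 2 and 1 at S6k, in that order.

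**Figure D3:**
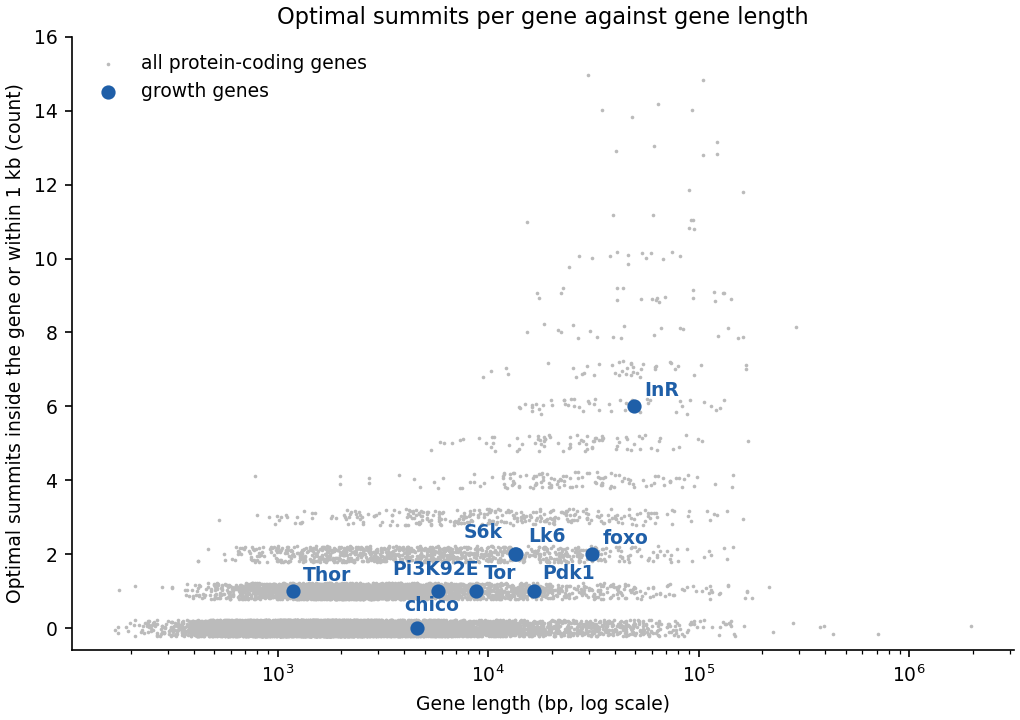
Number of optimal summits inside a gene or within 1 kb against gene length (bp, log scale) for all 13945 protein-coding genes (grey, with a small vertical scatter) and the 9 growth genes (blue). InR, at 49074 bp, has 6, and the others have 0 to 2, within the cloud of genes of their length.

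The base composition at the summits varied among the genes. Mean GC over the 16 summit windows of 101 bp was 38.7% (SD 7.95, n = 16 regions), against 45.0% in windows 300 bp to either side, and 12 of the 16 summits were below their flanks. Over all optimal regions the mean was 34.4% (SD 8.56) at summits and 44.7% in flanks, with 80.2% of summits below. At the summits of the strongest overlapping replicate regions, the mean for the 16 was 36.4% in replicate 1 and 35.5% in replicate 3. In each replicate InR regions 4 and 5 took the same region, so 1 summit stands for both. The 34.4% over all optimal regions is at pooled summits and is not a like comparison for these means. Over all 23165 pooled regions below the optimal list, at any gene or none, the means were 40.1% at summits and 42.7% in flanks, with 56.5% of summits below. The largest drops were at foxo region 1, InR region 2 (29.7% against 51.0%) and InR region 6 (32.7% against 53.0%). The 4 summits above their flanks were the distal InR promoter (46.5% against 38.6%), InR region 5 (47.5% against 37.6%), the foxo promoter (41.6% against 33.7%) and the S6k promoter (55.4% against 54.5%). Of the 5 summits at a TSS, 3 were more GC-rich than their flanks, the S6k promoter only slightly, while the Thor and Tor promoters were not. The share over all optimal summits at a TSS was not computed.

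**Figure D4:**
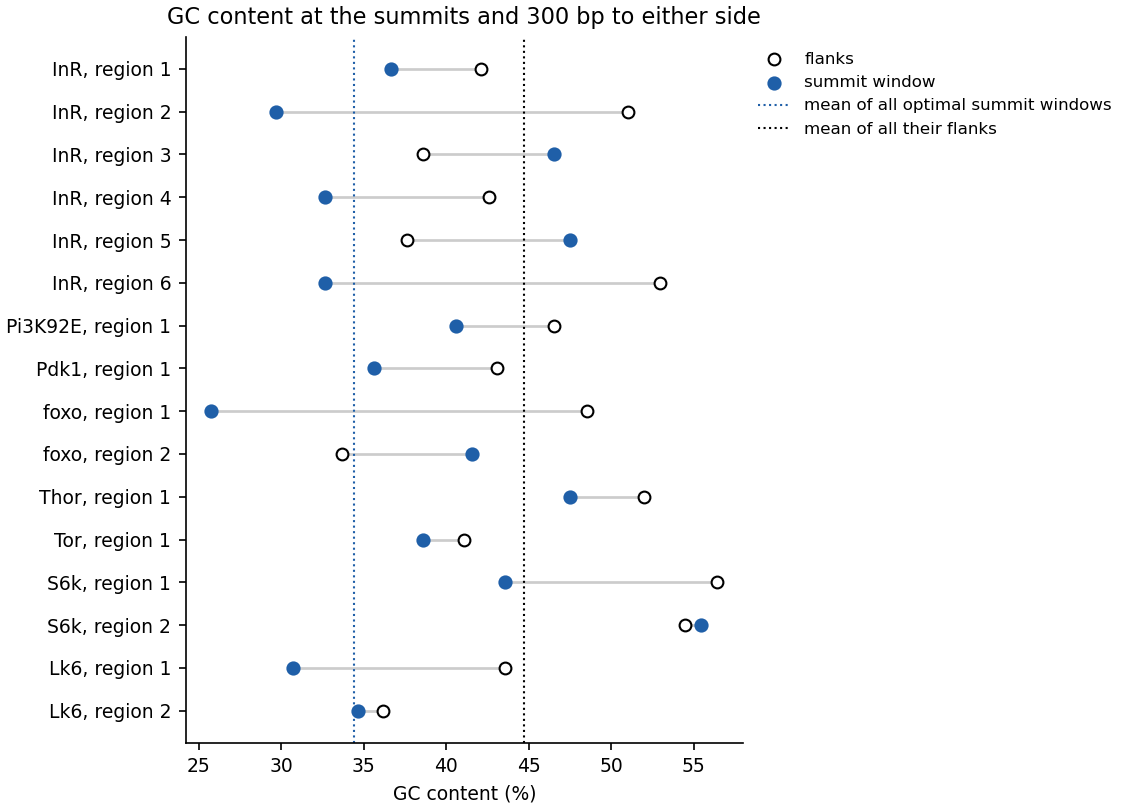
GC content (%) of the 101 bp summit window (blue) and of the windows 300 bp to either side (open circles) for each of the 16 regions; dotted lines are the means over all optimal regions, 34.4% at summits and 44.7% in flanks. In 12 of the 16 regions the summit is below its flanks.

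In the summit windows of 101 bp, searched on both strands for 11 motifs, few matches were found. TAATTA was in 3 of the 16, at foxo region 1, Tor and Lk6 region 2, and in 8.79% of all optimal windows. AGATAA, the GATA factor site, was in 1, at the summit of InR region 5, and in 7.80% of all. TATAAA was in 2 (20.1% of all) and AAAAAAAA in 3 (7.87% of all). TATCGATA, the DRE of growth and replication genes, was in none (1.57% of all), and neither was the Myc site CACGTG (0.732%), GAGAGAG (1.10%), the FOXO core GTAAACA (2.87%), TGANTCA (2.69%), CAGCTG (3.39%) or CACACACA (1.02%). In windows of 201 bp, TAATTA was in 5, TATAAA in 7, and GAGAGAG and GTAAACA in 2 each, both times at Thor and Lk6, where all optimal windows gave 16.4%, 34.3%, 3.23% and 5.50%. A match describes letters and does not show a bound site.

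Beyond the 9 genes, 58 other genes of the insulin and TOR pathways were listed, of which 56 were matched to the models by symbol. Of the 56, 29 (51.8%, exact interval 38.0% to 65.3%) had an optimal summit, where genes of like length gave a mean of 42.2% and all protein-coding genes 34.1%. The genes were listed with earlier results of these data known, so the interval is no test against these shares. The best region of 16 of the 29 also lay in the window of another gene, and in 9 it was nearer to the TSS of another gene. In 22 of the 29 both replicates had a summit among their strongest 6835 regions. The matching shares over all genes with an optimal summit were not computed, so whether these counts are usual is not known. Among the 29, 12 (41.4%) had their best region in the strongest 1367, against 30.05% of all genes with an optimal summit and 1 of the 8 growth genes with one. These shares were not matched for length. The median length was 5026.5 bp over the 56 genes and 2166 bp over all protein-coding genes.

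Counts are given by step of the pathway, each beside the mean share with an optimal summit among genes of like length. Of the insulin-like ligands and their binding proteins, 2 of 10 had an optimal summit, against 27.4% of genes of like length. They were ImpL2, which binds insulin-like peptides in the haemolymph, at rank 381 with 3 regions, and Sdr, a secreted decoy of the receptor, at rank 2705. The best region of ImpL2 was 1073 bp both from its TSS and from that of another gene. Among receptor adaptors and the arm from phosphoinositide 3-kinase to Akt, 9 of 10 had an optimal summit, against 49.6% of genes of like length. The highest ranks there were 118 for sgg, the glycogen synthase kinase 3 gene, 547 for Pi3K21B, the regulatory subunit that partners Pi3K92E, and 695 for melt, a membrane adaptor of the pathway. Akt itself had 1 region, at rank 5123, 757 bp from its TSS, among the strongest of replicate 1 and not of replicate 3.

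Among the TOR complexes and their upstream regulators, 3 of 10 had an optimal summit, against 37.7%. They were Lkb1, the kinase that activates AMPK, at rank 1612, Tctp at rank 2366, and Rheb, the small GTPase that activates Tor, at rank 3294. All 3 of these best regions also lay in the window of a neighbouring gene. That of Rheb was 106 bp from the TSS of the neighbour and 200 bp from the TSS of Rheb. Of 10 genes of amino acid sensing, 4 had an optimal summit, against 42.1%, led by Sesn (sestrin) at rank 65, then RagA-B at 4293 and the amino acid transporter gene mnd at 5938. The best region of Sesn was 251 bp both from its TSS and from that of another gene. That of RagA-B was 527 bp from its TSS and 86 bp from that of another gene. Of 9 targets of Tor and S6k in translation and autophagy, 7 had an optimal summit, against 46.1%, led by the autophagy genes Atg17 at 524 and Atg1 at 979 and by S6KL, a kinase gene related to S6k, at 3131. The best regions of Atg17 and Atg1 lay nearer to the TSS of another gene. The distances were 94 bp against 285 bp for Atg17 and 2006 bp against 11892 bp for Atg1. Of 7 transcription factors and cofactors beside foxo, 4 had an optimal summit, against 54.0%. REPTOR, which acts in the transcriptional response to low Tor activity, ranked 69 with 6 regions, Myc ranked 310 with 5, and Mnt, whose protein competes with Myc for its partner Max, ranked 635 with 15. Of the 27 listed genes without an optimal summit, 12 had no pooled summit either. Each sublist has 7 to 10 genes, and no difference between them was tested.

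**Figure D5:**
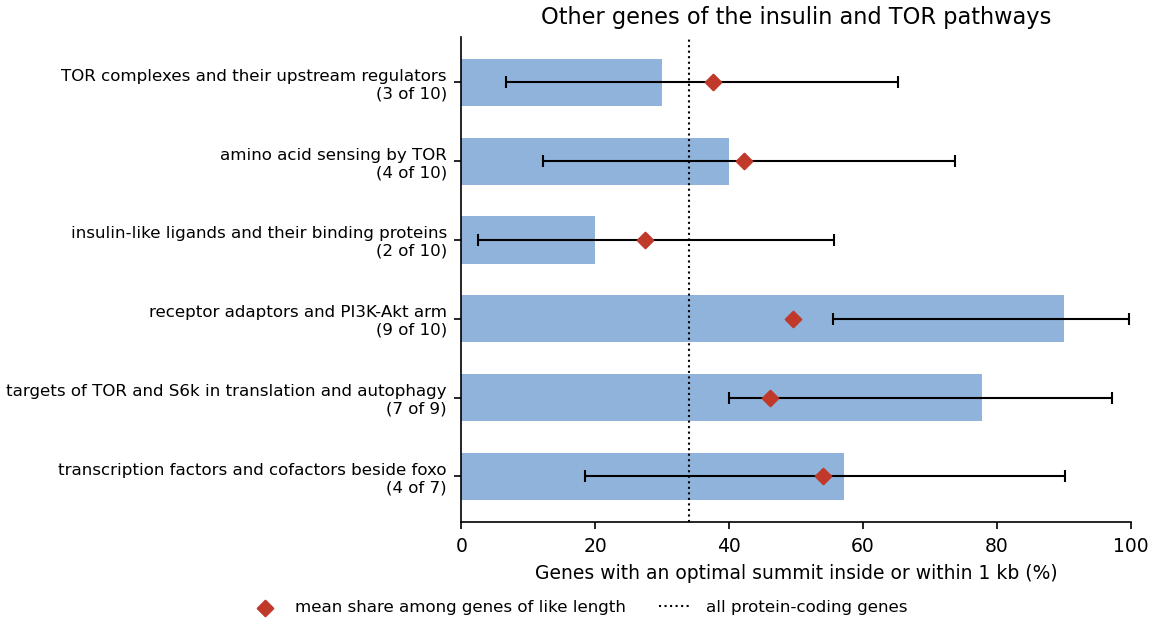
Share of genes (%) with an optimal summit inside or within 1 kb in 6 sublists of other insulin and TOR pathway genes. Bars are shares with 95% exact binomial intervals (counting error over genes only), red diamonds are the mean share among genes of like length and the dotted line is the 34.1% of all protein-coding genes. The lists were chosen with earlier results of these data known, so the intervals are no test against the diamonds or the line. Receptor adaptors and the arm from phosphoinositide 3-kinase to Akt have 9 of 10. The ligands and their binding proteins have 2 of 10, neither of them a ligand.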

How the data were processed

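ChIP-seq regions of 2 libraries of ey-eGFP larvae were analysed from the 4 deposited dm6 lists in narrowPeak format (replicate 1, replicate 3, pooled, optimal). Per the file listings deposited with them, each list was called from alignments against a control alignment, and the optimal list was thresholded on the irreproducible discovery rate from the replicate and pooled lists. Which aligner, caller and threshold were used is not given in the sources used here. The control itself was left out. The deposited signal value was used for ranks. The −log10 q-value deposited by the authors sat at its maximum in 36.9% (replicate 1), 21.2% (replicate 3), 26.9% (pooled) and 100% (optimal) of regions and was not used for ranking. Summits were the region start plus the offset deposited by the authors. The dm3 lists were not used.

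Gene models were Ensembl release 115 (BDGP 6.54) and bases came from the NCBI RefSeq Release 6 genome. A summit was assigned to every gene within 1 kb, classed as TSS within 500 bp of a protein-coding start and otherwise by feature, and matched to replicate regions by an overlap of 1 bp. Genes of like length were those within 1.5 times. GC and motifs were read 50 bp to either side of summits, with flanks 300 bp away. The members, pathway lists and motifs were chosen with earlier results of these data known, and no p-value is given. All 9 listed genes were named, with the 3 highest-ranked genes of each pathway sublist, and Akt and Rheb whatever their values. A further gene that the rule names is not reported here. Intervals cover counting error over regions or genes only. Python 3.11.15, pandas 2.3.3, numpy 2.4.6 and scipy 1.17.1 were used, and the counting functions were tested on simulated data. The alternatives tried were other gene windows, lists, overlap rules and summit windows, and each replicate alone.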

Additional observations from a re-analysis of the deposited data

How the results depend on the processing

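The number of the 9 growth genes with an optimal summit stayed between 6 and 9 under every alternative, from 6 in the stronger 3417 optimal regions to 9 in the whole pooled list, and was 8 without replicate 1 and 8 without replicate 3. The share of all protein-coding genes moved more. Without a window around the gene it was 14.9%, with 5 kb 55.3%, in the stronger 3417 regions 21.2% and in the whole pooled list 63.4%, and the number of the 56 other pathway genes was 16, 45, 18 and 44 in the same order. With each replicate alone, pathway genes numbered 26 to 27 and the share was 33.4% to 34.5%. Within 1000 bp of a TSS lay 8 of the 16 summits in place of 5. Mean GC over 100 bp to either side was 38.1%. In an alternative chosen after seeing the data, the nearest replicate summit in place of the strongest overlapping region gave median distances of 8.5 bp and 24 bp and a mean GC of 37.4% and 35.5% in replicates 1 and 3. Agreement of both replicates fell from 14 to 10 of 16 when an overlap of at least 50% of both lengths was asked for, and to 12 when summits had to lie within 100 bp. No paired analysis was possible because the study has 1 group. Unknown depth and 2 libraries limit all of these values, and no difference from other genes was tested.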
